A study of Mus musculus with 14 samples.

Results

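The livers came from mice in which *Trf2* (*Terf2*) was deleted from hepatocytes and from control mice, with 4 libraries of RNA from each group, 8 of the 14 libraries of the study. The other 6 libraries came from immortalized mouse embryonic fibroblasts (iMEFs). Trf2-deleted livers were from Trf2F/F;Rosa-mTmG mice, which carry floxed *Terf2* on both copies of chromosome 8 and a fluorescent Cre reporter. Control livers were from Rosa-mTmG mice, which carry the reporter only. Both groups were injected through the tail vein with AAV8-Tbg-Cre, a virus that expresses Cre recombinase from the promoter of thyroxine-binding globulin, which is active in hepatocytes, and livers were collected 6 to 7 weeks later. The methods give C57BL/6J as the genetic background, and no source used here gives the age of the mice. The submitters call the replicates biological. Members of the comparison were chosen by label, and 14270 of the 26447 genes with a read in these livers passed the filter on low counts and were tested.

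TRF2 is a subunit of shelterin, the protein complex that covers telomeres. Chromosome ends that lose TRF2 are read by the cell as broken DNA, the kinase ATM is activated, and p53 is stabilized and switches on its target genes, among them the cell cycle inhibitor p21 and the p53 inhibitor Mdm2. Hepatocytes divide rarely and are known to tolerate the loss of TRF2. Cre was directed to hepatocytes, so that Kupffer cells, endothelium, stellate cells and bile duct cells of a bulk liver sample keep the gene.

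*Terf2* was checked first. Its level was 11.3, 13.8, 13.8 and 11.6 CPM (counts per 1000000 reads, TMM-normalised) in control livers 1 to 4 and 4.91, 2.84, 2.87 and 4.67 CPM in Trf2-deleted livers 1 to 4. The groups did not overlap, and the mean fell from 12.6 ± 1.35 to 3.82 ± 1.12 CPM (SD, n = 4 livers per group). The log2 fold change was -1.69, with a 95% confidence interval from -2.13 to -1.24 (edgeR quasi-likelihood test, Benjamini-Hochberg adjusted p = 0.00216). In total 247 reads of the gene were counted in the 4 Trf2-deleted livers, against 874 in controls. In bulk tissue, fewer cells of a type and less RNA per cell cannot be told apart.

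Few other genes passed the test. At an adjusted p of 0.05, 49 of the 14270 genes were called (0.343%), 44 of them higher (0.308%) and 5 lower (0.035%) in Trf2-deleted livers. Of these, 21 are on a list of 184 p53 targets written from general knowledge, of which 161 were tested, and all 21 were higher. The list was chosen with earlier results of these data known, and a gene outside it can still be a p53 target. The remaining 28 genes, 23 higher and 5 lower including *Terf2* itself, are not on that list, and 23 of the 28 are annotated as protein coding. In 33 of the 49 the fitted change was larger than 1 on the log2 scale. None of the 49 had groups that overlapped. Of all tested genes, 4.51% had groups without overlap, 364 in the higher and 280 in the lower direction. The 49 were called from the same values, so that their lack of overlap is no separate result. At an unadjusted p of 0.05, 7.54% of genes passed, 592 higher and 484 lower. The counts depended on the settings, since DESeq2 called 133 genes (99 higher, 34 lower) and edgeR called 130 when weakly expressed genes were kept in (97 higher, 33 lower). All 49 were among the calls of both.

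Libraries held 15364450 to 18015991 reads in genes and were alike in broad measures. Mitochondrially encoded genes took 3.96% to 5.15% of reads and albumin 6.01% to 8.44%. Hepatocyte markers summed to 103023 to 115269 CPM in control and 113303 to 132415 CPM in Trf2-deleted livers, and none of the 14 was at 0. Stellate cell markers were the marker list whose summed level did not overlap between the groups, at 516.6 to 627 CPM in controls and 641 to 704 CPM in Trf2-deleted livers, with none of its 10 genes past the test. The summed levels of the other 11 lists overlapped, and 2 of 5 adipocyte and 8 of 12 pancreatic acinar markers were at 0 in all livers. No gene on a marker list was called by edgeR, with 16 entries higher and 1 lower at an unadjusted p of 0.05, and DESeq2 called 1, *Jchain*.

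Called p53 targets rose by 0.57 to 3.92 on the log2 scale, with a median of 1.52. *Phlda3*, which encodes a repressor of Akt signaling, was at 2.12, 1.94, 1.52 and 2.11 CPM in controls and at 31.5, 36.0, 32.0 and 24.0 CPM in Trf2-deleted livers, a log2 fold change of 3.92 ± 0.167 (SE, edgeR adjusted p = 3.32e-07). *Ccng1*, encoding cyclin G1, rose from 44.0, 44.6, 39.6 and 42.0 CPM to 105, 128, 142 and 103 CPM. *Aen*, an apoptosis-enhancing nuclease, rose from 13.1, 14.7, 10.7 and 16.6 CPM to 45.5, 43.8, 37.5 and 42.5 CPM. These 3 genes had the smallest p of the p53 list. That choice favours livers that lie close together within each group relative to the gap between groups, as they did here. Among effectors of apoptosis, *Bax* rose by 0.95 and *Apaf1* by 0.95 on the log2 scale, and the death receptor gene *Eda2r* by 3.06. Among regulators, *Mdm2* rose by 0.85, *Plk2* by 1.65, *Zmat3* by 1.53 and *Btg2* by 1.52. *Polk*, a translesion polymerase, rose by 1.18, the cytokine gene *Gdf15* by 1.27, and *Ephx1*, which encodes microsomal epoxide hydrolase, by 0.86. *Lif*, another cytokine gene, had 2 reads in control and 122 in Trf2-deleted livers, a ratio of 66.2 with a counting interval from 17.9 to 553. The remaining called targets were *Sulf2* (1.06), *Dglucy* (0.79), *Ddit4l* (2.14), *Gtse1* (2.16), *Cdkn1a* (2.43), *Rps27l* (0.57) and the noncoding RNA *Trp53cor1* (2.18), which lies 11.8 kb from *Cdkn1a*. Of the 161 tested entries of the list, 140 did not pass, and DESeq2 called 29, none lower. *Apaf1* and *Rps27l* passed in 1, *Trp53cor1* in 2 and *Gdf15* in 3 of the 8 fits that left out 1 liver.

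*Cdkn1a*, the gene of p21, varied most among control livers of the called targets. Its level was 27.6, 35.9, 10.8 and 9.32 CPM in control livers and 148, 142, 109 and 55.6 CPM in Trf2-deleted livers. Control livers differed from each other by several fold, and the lowest Trf2-deleted liver, number 4, was still above the highest control. The adjusted p was 0.0293 (edgeR) and passed in 3 of the 8 fits that left out 1 liver.

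Of the 23 higher genes that are not on the p53 list, *Atp8b5* had the smallest p. It encodes a P4-type ATPase of the phospholipid flippase family and lies on chromosome 4 at 43267159 to 43373833 (GRCm38). Its level was 2.51, 1.82, 1.76 and 2.33 CPM in control livers and 15.3, 14.5, 18.8 and 17.2 CPM in Trf2-deleted livers. The lowest Trf2-deleted liver was far above the highest control, and the log2 fold change was 2.89 ± 0.171 (SE, edgeR adjusted p = 6.81e-06). *Ces2e*, a carboxylesterase gene on chromosome 8, was the most abundant of the strongly changed genes, at 213, 217, 176 and 163 CPM in controls and 512, 572, 540 and 491 CPM in Trf2-deleted livers, a change of 1.46 ± 0.108 (adjusted p = 7.15e-05). *Gria3*, which encodes a subunit of AMPA-type glutamate receptors, was at 1.67, 2.64, 0.730 and 3.00 CPM in controls and at 18.8, 19.9, 24.3 and 20.3 CPM in Trf2-deleted livers. The control levels of *Gria3* differed by several fold while those of Trf2-deleted livers were close together, and the change was 3.29 ± 0.290 (adjusted p = 0.000174).

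*Gm37795*, a transcript annotated from incomplete evidence on chromosome 4 (150068539 to 150070997, plus strand), was at 0.892, 0.704, 0.852 and 1.33 CPM in controls and 8.27, 8.99, 6.62 and 7.39 CPM in Trf2-deleted livers, a change of 2.89 ± 0.242 (edgeR adjusted p = 0.000102). It overlaps the hairpin of *Mir34a* on the same strand. *Mir34a* encodes miR-34a, a microRNA that p53 is known to induce, and with 0 reads in control and 2 in Trf2-deleted livers its own annotation could not be compared. The mature arm miR-34a-5p lies at chr4:150068473-150068494, just before the annotated start of *Gm37795*, and is shown because it places this transcript beside a p53 target, with the seed (bases 2 to 8) in capitals (RefSeq, GRCm38.p6).
miR-34a-5p: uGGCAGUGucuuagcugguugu

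*Ddias*, the DNA damage-induced apoptosis suppressor, was at 0.836, 1.41, 0.852 and 1.22 CPM in controls and 6.30, 6.48, 12.5 and 8.15 CPM in Trf2-deleted livers, a change of 2.82 ± 0.294 (edgeR adjusted p = 0.000579). Trf2-deleted liver 3 was the highest. *Mgmt*, whose product removes alkyl groups from guanine in DNA, was at 24.8, 23.2, 24.1 and 28.1 CPM in controls and 36.8, 47.9, 45.7 and 45.7 CPM in Trf2-deleted livers, a change of 0.81 ± 0.108 (adjusted p = 0.00438). *H2afj*, the gene of the histone variant H2A.J, rose from 24.9 ± 1.06 to 38.6 ± 4.17 CPM (SD over 4 livers), and *Endog*, a mitochondrial nuclease, from 28.3 ± 0.669 to 39.3 ± 2.74 CPM. *Endog* overlaps *Spout1* on the opposite strand, and reads of the 2 genes cannot be told apart without knowing whether counting used strand. *Endog* passed in 1 and *H2afj* in 5 of the 8 fits without 1 liver.

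Other protein-coding members act in secretion, signaling and the nucleus. *Exoc4*, a subunit of the exocyst that tethers secretory vesicles, was at 26.2, 24.9, 24.3 and 30.9 CPM in controls and 56.1, 55.0, 61.6 and 48.1 CPM in Trf2-deleted livers, a change of 1.05 ± 0.109 (edgeR adjusted p = 0.000681). *Nrg1*, a ligand of ErbB receptors, was low in every liver, at 0.335, 0.586, 0.183 and 0.555 CPM in controls and 4.11, 2.11, 3.31 and 3.35 CPM in Trf2-deleted livers, a change of 2.64 ± 0.384 (adjusted p = 0.00424). The change of *Nrg1* rests on 29 reads in control and 208 in Trf2-deleted livers. *Tmem43*, which encodes an inner nuclear membrane protein, was at 13.8, 12.2, 9.12 and 10.6 CPM in controls and 18.6, 23.1, 24.8 and 22.4 CPM in Trf2-deleted livers.

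*Serpina3n*, an acute phase serpin, rose from 324.9 ± 48.2 to 600.1 ± 95.8 CPM and was the 1 called gene among 41 tested acute phase genes. *Amy1*, an amylase gene that shares its region and strand with *Rnpc3*, rose from 189 ± 16.5 to 279 ± 24.1 CPM. *Commd3* rose from 65.1 ± 4.25 to 96.4 ± 9.08 CPM, and *Sytl1*, whose product binds the vesicle GTPase Rab27, from 4.57 ± 0.472 to 9.94 ± 1.89 CPM. *Mybl1*, encoding the transcription factor A-Myb, rose from 1.15 ± 0.441 to 4.98 ± 1.67 CPM (SD over 4 livers in each case). *Commd3* and *Amy1* passed in 2, *Sytl1* in 3 and *Mybl1* in 4 of the 8 fits without 1 liver.

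Noncoding genes and genes of unknown role made up the rest. The long noncoding RNA *1700061I17Rik* was at 0.167, 0.645, 0.912 and 1.33 CPM in controls and 8.79, 13.9, 6.88 and 16.9 CPM in Trf2-deleted livers, a change of 3.73 ± 0.439 (edgeR adjusted p = 0.00151). Both groups varied by more than 2-fold within themselves and were still apart. *1700007K13Rik*, a protein-coding gene without a known role, had 2 reads in all controls and 88 in Trf2-deleted livers, a ratio of 47.8 with a counting interval from 12.8 to 401 and an adjusted p of 0.00645. Its levels were 0, 0.0586, 0.0608 and 0 CPM in controls and 1.27, 2.25, 1.40 and 0.631 CPM in Trf2-deleted livers. *Snhg15*, a host gene of small nucleolar RNA, was at 1.56, 2.64, 2.31 and 1.998 CPM in controls and 6.36, 7.53, 5.99 and 5.37 CPM in Trf2-deleted livers, a change of 1.52 ± 0.222 (adjusted p = 0.00718). *Gm9949*, a long noncoding RNA with 14 control reads, rose by 2.47 and passed in 1 of the 8 fits without 1 liver.

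**Figure D1:**
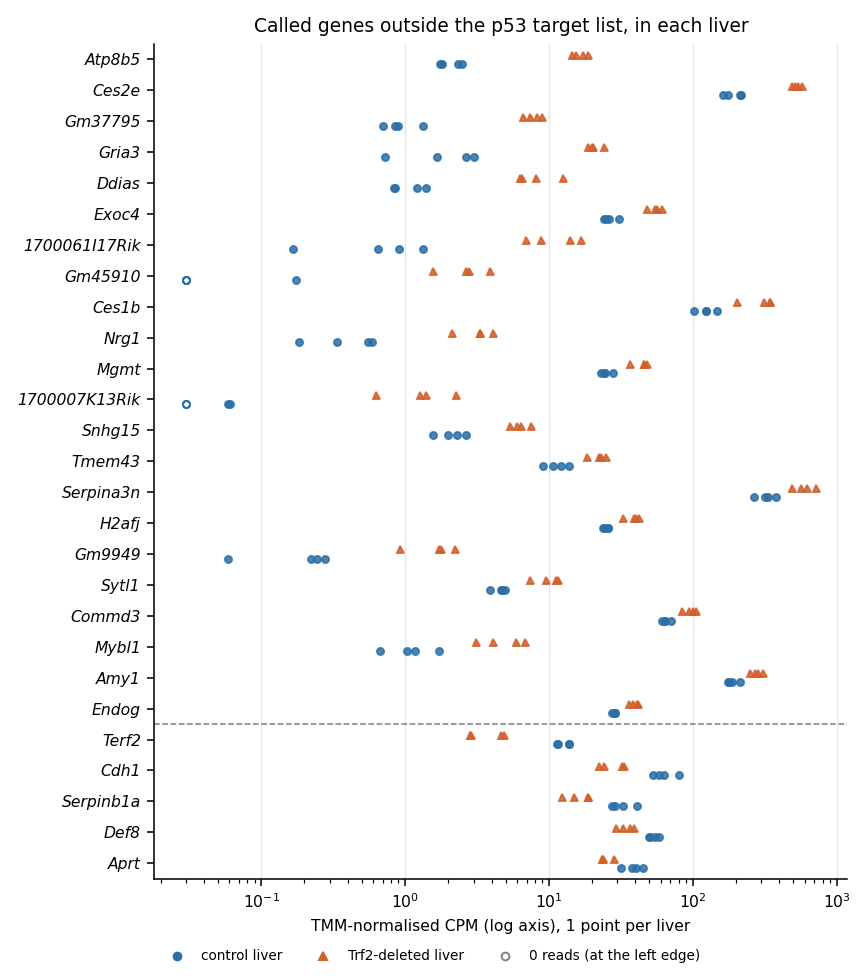
Level in every liver of 27 of the 28 called genes outside the p53 target list, in TMM-normalised CPM on a log axis, with 22 of the 23 higher genes above the dashed line and 5 lower genes under it. Circles are control livers, triangles are Trf2-deleted livers, open symbols at the left edge are livers with 0 reads, and in no row do the groups overlap.

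The 5 lower genes were *Terf2*, *Cdh1*, *Serpinb1a*, *Def8* and *Aprt*. *Cdh1* encodes E-cadherin, the adhesion protein of epithelial cell junctions, and was at 62.7, 53.2, 80.4 and 58.3 CPM in controls and 32.4, 33.5, 22.2 and 24.2 CPM in Trf2-deleted livers. No Trf2-deleted liver reached the lowest control, and *Cdh1* fell by 1.18 ± 0.160 on the log2 scale (edgeR adjusted p = 0.00542). *Serpinb1a*, which encodes an inhibitor of neutrophil proteases, was at 27.5, 28.8, 32.8 and 40.7 CPM in controls and 12.4, 18.6, 18.9 and 14.8 CPM in Trf2-deleted livers, and its change was -0.9998 ± 0.161 (adjusted p = 0.0179). *Aprt*, the enzyme that salvages adenine, was at 37.9, 31.7, 44.8 and 40.5 CPM in controls and 23.9, 28.3, 23.5 and 23.9 CPM in Trf2-deleted livers. *Def8* was at 50.4, 49.6, 54.3 and 58.2 CPM in controls and 38.9, 36.7, 29.1 and 32.6 CPM in Trf2-deleted livers. *Def8* and *Aprt* both changed by -0.63 (adjusted p = 0.0255 and 0.0492), and each passed in 1 of the 8 fits without 1 liver, whereas *Terf2* and *Cdh1* passed in all 8 and *Serpinb1a* in 6. The number of lower genes was 2 without control liver 3 or Trf2-deleted liver 4, 3 without control liver 1 or Trf2-deleted liver 2, and 10 without Trf2-deleted liver 1.

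Of the 5 lower genes, 4 lie on chromosome 8, the chromosome of *Terf2*. On this chromosome 9 of 778 tested genes were called (1.16%), 5 higher and 4 lower, against 40 of 13492 (0.296%) on the other chromosomes, where 39 were higher and 1 was lower. Besides *Terf2*, 8 genes of chromosome 8 were called, and 5 were without control liver 1, control liver 3 or Trf2-deleted liver 2. Groups without overlap were found in 7.46% of chromosome 8 genes (28 higher, 30 lower) and in 4.34% of the others (336 higher, 250 lower), and the next highest share was 5.41%, on chromosome 1. The median log2 fold change over the chromosome was 0.00, as elsewhere. Control mice carried no floxed *Terf2*, so that for genes of chromosome 8 the loss of TRF2 and the DNA inherited along with the floxed alleles cannot be told apart.

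The genes called by edgeR were not the nearest neighbours of *Terf2* (8:107069400 to 107096547, minus strand). Of the 5 tested genes on each side, *Utp4*, *Vps4a*, *Cog8* and *Nip7* before it and *Cyb5b*, *Nfat5*, *Nqo1*, *Nob1* and *Wwp2* after it had log2 fold changes from -0.14 to 0.12, and none passed. *Sntb2*, 0.0497 Mb away, had groups without overlap, at 11.5 ± 3.01 CPM in controls and 19.95 ± 2.99 CPM in Trf2-deleted livers, a change of 0.79 with an edgeR adjusted p of 0.142. DESeq2 called *Sntb2* higher (DESeq2 adjusted p = 0.0107). *Cdh1* lies 399.2 kb away and was the 1 called gene among the 25 tested within 1 Mb. Between 1 and 5 Mb, *Ces2e* was called of 98 tested genes, and between 5 and 20 Mb the called genes were *Ces1b*, *Gm45910*, *Aprt* and *Def8* of 185. Farther than 20 Mb, *Gdf15* and *Nrg1* were called of 469, at 36.4 and 74.2 Mb. The share of genes without overlap was 16% within 1 Mb, 6.12% from 1 to 5 Mb, 11.9% from 5 to 20 Mb (7 higher, 15 lower) and 5.33% beyond (18 higher, 7 lower). The first of these shares stands for 4 genes of 25.

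**Figure D2:**
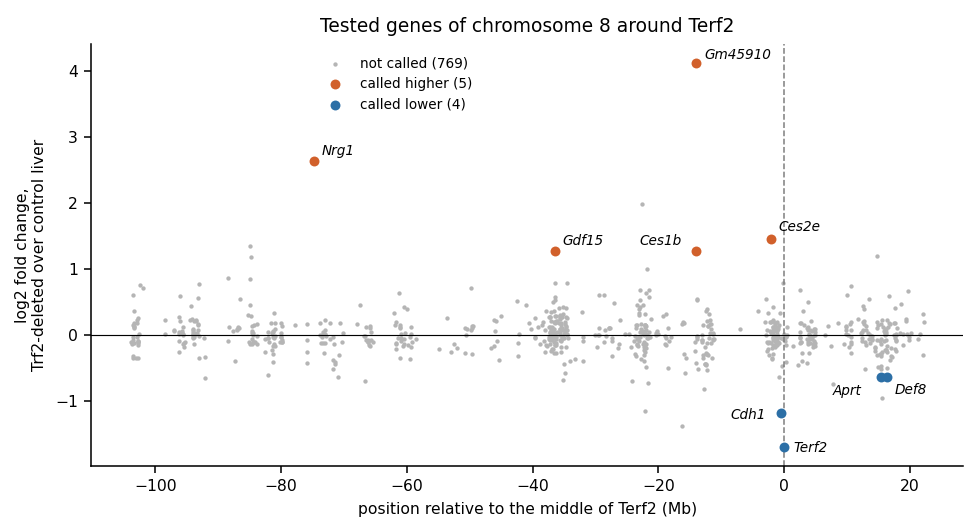
Log2 fold change (Trf2-deleted over control liver) of the 778 tested genes of chromosome 8 against their position relative to the middle of *Terf2*, in Mb. The 5 genes called higher (orange) lie on one side of *Terf2*, between 2.14 and 74.2 Mb away. The genes called lower (blue) are *Terf2*, *Cdh1* and, 15.5 and 16.3 Mb away on the other side, *Aprt* and *Def8*. The number of tested genes on each side was not compared.

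Chromosome 8 also holds the carboxylesterase genes, whose products hydrolyse esters of drugs and lipids in hepatocytes. Of the 20 on the list, 12 were tested and 2 were called, *Ces2e* and *Ces1b*, with a median log2 fold change of -0.04 over the 12. *Ces1b* was at 147, 125, 124 and 103 CPM in controls and 205, 346, 311 and 342 CPM in Trf2-deleted livers, a change of 1.27 ± 0.162 (edgeR adjusted p = 0.00320), with Trf2-deleted liver 1 closest to the controls. *Gm45910*, annotated as an unprocessed pseudogene 61.3 kb from *Ces1b*, was at 0, 0.176, 0 and 0 CPM in controls and 1.56, 2.64, 3.89 and 2.78 CPM in Trf2-deleted livers. With 3 reads in controls and 172 in Trf2-deleted livers, its ratio was 62.3 with a counting interval from 20.9 to 305 (adjusted p = 0.00271). Neither *Ces1f* nor *Ces1c* passed by edgeR. *Ces1f* was higher without overlap (400.4 ± 54.3 and 582 ± 47.3 CPM, change 0.54, adjusted p = 0.0622) and *Ces1c* lower without overlap (4161 ± 316 and 3099 ± 320 CPM, change -0.43, adjusted p = 0.145). The carboxylesterases arose by duplication, and reads that match several copies can be assigned differently by the aligner, so that the split among copies is uncertain.

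DESeq2 called 20 genes of chromosome 8 besides *Terf2*, of which 12 were not called by edgeR. Of these, *Ces1f* (0.54), *Pgpep1* (0.58), *Vps36* (0.46), *Sntb2* (0.79) and *Cacna1a* (2.10) were higher, and *Nfix* (-0.40), *Galns* (-0.98), *Herpud1* (-0.82), *Ces1c* (-0.43), *Ces1g* (-0.52), *Abcb10* (-0.39) and *Wwox* (-0.76) were lower on the log2 scale. DESeq2 adjusted p ran from 0.000358 for *Nfix* to 0.0482 for *Wwox*.

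The windows around the starts of called genes were searched for the p53 half-site consensus, which reads the same on both strands, since the 28 members were set apart from p53 targets only by a list. Windows of 300 bases, 250 before and 50 after the start, were found in the RefSeq table (GRCm38.p6) for 18 of the 28 members and 19 of the 21 called p53 targets. At least 1 match was present in 4 of the 18 (22.2%) and in 9 of the 19 (47.4%), and in 8.3% of the 10432 tested genes with a window. The 4 members were *Exoc4*, *1700007K13Rik*, *Serpina3n* and *Sytl1*, with matches that began at positions -203, -91, -214 and -241 from the start, and *1700007K13Rik* had a second at position 30 after it. *Cdkn1a*, a p53 target shown for comparison, had matches at -73 and -51 in 1 of its 2 windows in the table and none in the other. A match is a description of letters and not of binding. The 250 bases before each start are given below 5′ to 3′ on the strand of the gene, with the matches in capitals, for *Exoc4* (chr6:33248878-33249127, plus strand), *1700007K13Rik* (chr2:28466325-28466574, minus), *Serpina3n* (chr12:104406458-104406707, plus), *Sytl1* (chr4:133263088-133263337, minus) and *Cdkn1a* (chr17:29090729-29090978, plus).
Exoc4: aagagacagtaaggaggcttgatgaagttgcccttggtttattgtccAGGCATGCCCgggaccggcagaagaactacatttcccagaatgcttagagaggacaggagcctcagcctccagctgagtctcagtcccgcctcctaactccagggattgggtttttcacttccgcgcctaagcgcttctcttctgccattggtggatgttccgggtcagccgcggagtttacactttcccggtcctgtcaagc
1700007K13Rik: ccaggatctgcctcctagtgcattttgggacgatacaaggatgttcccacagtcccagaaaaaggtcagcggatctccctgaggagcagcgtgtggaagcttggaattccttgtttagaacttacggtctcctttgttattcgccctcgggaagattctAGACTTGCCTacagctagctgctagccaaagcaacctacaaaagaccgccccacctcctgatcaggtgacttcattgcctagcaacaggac
Serpina3n: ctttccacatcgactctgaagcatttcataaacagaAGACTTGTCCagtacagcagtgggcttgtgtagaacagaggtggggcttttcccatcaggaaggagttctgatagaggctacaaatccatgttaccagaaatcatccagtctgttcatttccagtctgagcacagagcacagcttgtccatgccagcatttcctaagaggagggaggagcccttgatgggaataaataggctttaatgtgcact
Sytl1: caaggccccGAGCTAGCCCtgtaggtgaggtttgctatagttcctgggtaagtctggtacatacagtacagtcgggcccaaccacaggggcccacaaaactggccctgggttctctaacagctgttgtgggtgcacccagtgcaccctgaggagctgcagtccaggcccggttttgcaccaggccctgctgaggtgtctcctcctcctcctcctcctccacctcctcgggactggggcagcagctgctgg
Cdkn1a: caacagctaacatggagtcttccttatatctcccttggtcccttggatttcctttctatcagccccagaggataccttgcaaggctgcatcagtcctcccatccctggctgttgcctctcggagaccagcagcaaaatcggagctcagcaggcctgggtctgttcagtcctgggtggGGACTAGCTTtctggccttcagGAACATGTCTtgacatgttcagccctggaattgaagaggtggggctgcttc

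Pathway lists other than that of p53 targets gave few or no called genes. Of 24 pathway lists, 4 had a called member, namely p53 targets (21), carboxylesterases (2), acute phase proteins (*Serpina3n*) and secreted factors of senescence (*Nrg1*, 1 of 46 tested). The called cytokine genes *Gdf15* and *Lif* are counted on the p53 list and are not on the list of secreted factors. The other 20 lists had 794 tested entries and no gene called by edgeR, with 31 entries higher and 60 lower at an unadjusted p of 0.05. DESeq2 called 12 genes on 9 of these lists, 6 higher and 6 lower. The higher ones were *Sesn2* (DESeq2 adjusted p = 0.00390), *Sult2a7* (0.0135), *Cenpe* (0.0276), *Tubb4b* (0.0427), *Cyp3a41b* (0.0434) and *Ugt2b1* (0.0486). The lower ones were *Herpud1* (DESeq2 adjusted p = 0.00116), *Sds* (0.00471), *Slc37a4* (0.0176), *Dnajb9* (0.0245), *Pfkfb3* (0.0320) and *Eno1* (0.0437). Over all tested genes the median log2 fold change was 0.00, and 7028 of 14270 changes were positive.

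Among lists of lipid metabolism, those of cholesterol, bile acids and fatty acid synthesis had medians under 0. The median of fatty acid oxidation was close to that of all tested genes. In cholesterol synthesis and uptake the median was -0.28, with 4 of 32 genes positive. The smallest p of that list was that of *Mylip*, which targets the LDL receptor for degradation, at 11.5 ± 1.57 CPM in controls and 15.7 ± 2.05 CPM in Trf2-deleted livers (edgeR adjusted p = 0.433). In bile acid synthesis and transport the median was -0.16, with 9 of 32 positive and the smallest p for *Klb*, the co-receptor of FGF signals, at a change of -0.46 (adjusted p = 0.439). In fatty acid synthesis and lipid storage it was -0.14, with 11 of 43 positive, and for *Pklr*, liver pyruvate kinase, the change was -0.39 (adjusted p = 0.314). Fatty acid oxidation had a median of -0.01, with 24 of 51 positive and the smallest p for *Acsl5* (0.15, adjusted p = 0.758). None of these changes passed the test by edgeR or DESeq2.

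In glucose metabolism, 10 of 35 genes of gluconeogenesis and glycolysis were positive and *Slc37a4*, the glucose-6-phosphate transporter, was lower without overlap at -0.37 (edgeR adjusted p = 0.152). Among ER chaperones and the unfolded protein response, 9 of 29 were positive, and *Herpud1* was lower without overlap, at 255 ± 31.4 and 144 ± 45.8 CPM (adjusted p = 0.112). *Sds*, serine dehydratase, had the smallest p of the urea cycle and amino acid genes, at 142 ± 20.1 and 95.6 ± 12.5 CPM (adjusted p = 0.107). In the integrated stress response it was *Sesn2*, which is also a p53 target, at 12.5 ± 2.13 and 22.3 ± 5.57 CPM (adjusted p = 0.0948). *Sult2a7*, a hydroxysteroid sulfotransferase of phase II metabolism, was at 18.3 ± 11.3 and 117 ± 70.7 CPM, with groups that did not overlap and a change of 2.68 ± 0.529 that did not pass by edgeR (adjusted p = 0.0602). In phase I metabolism the smallest p was that of *Cyp3a41b*, at 1.15 (adjusted p = 0.0931), and its groups overlapped.

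In the lists that follow edgeR called no gene. The smallest p belonged to *Gbp3* in the interferon response (-0.52, edgeR adjusted p = 0.484), *Icam1* in the NF-kB and TNF response (0.43, adjusted p = 0.479), *Cenpe* in cell cycle and DNA replication (1.63, adjusted p = 0.150), *Adamts1* in extracellular matrix and fibrosis (0.58, adjusted p = 0.250) and *Tubb4b* among tubulins and cytoskeleton (0.46, adjusted p = 0.228). The median was 0.16 in the NF-kB list, with 25 of 41 positive, and 0.19 in the cell cycle list, with 40 of 61 positive. Other shelterin and telomere genes did not pass, the smallest p being that of *Ctc1*, a subunit of the CST complex, at 0.29 (adjusted p = 0.662). Lists of the mitochondrial genome (*mt-Co3*, 0.20, adjusted p = 0.683), the growth hormone axis (*Lepr*, -1.17, adjusted p = 0.554), sex-biased liver genes (*Ugt2b1*, 0.48, adjusted p = 0.250) and the circadian clock (*Pdxk*, -0.26, adjusted p = 0.551) had none either.

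Several marker lists of cells that keep *Terf2* had mostly positive changes, with no gene called by edgeR. All 11 Kupffer cell genes had positive changes, with a median of 0.34 and the smallest p for *Adgre1*, the macrophage receptor F4/80, at 0.50 (edgeR adjusted p = 0.596). Their summed level was 573, 316, 454 and 679 CPM in control livers and 674, 705, 552 and 662 CPM in Trf2-deleted livers. Control liver 2 was thus the lowest, and the groups overlapped. Of 10 stellate cell genes 9 were positive, with a median of 0.32 and *Dcn*, the matrix proteoglycan decorin, at 0.34 (adjusted p = 0.230). All 10 sinusoidal endothelial genes were tested and 9 were positive, with a median of 0.15 and *Clec4g* at 0.36 (adjusted p = 0.439). In the B and plasma cell list *Jchain*, the joining chain of secreted immunoglobulin, was at 1.31 (edgeR adjusted p = 0.330, DESeq2 adjusted p = 0.0456), and the summed level reached 88.3 CPM in Trf2-deleted liver 4 against 20.8 to 43.7 CPM in the 7 other livers. Smallest p in the remaining lists were those of *Alb* for hepatocytes (0.30, adjusted p = 0.518, 6 of 14 genes positive), *Csf3r* for neutrophils (0.85, adjusted p = 0.314, 3 of 3 positive), *Hba-a2* for erythroid cells (0.84, adjusted p = 0.410, 5 of 5 positive), *Tspan8* for bile duct cells (0.91, adjusted p = 0.543, 6 of 8 positive, *Krt19* at -1.19), *Lgals3* for monocyte-derived macrophages (0.52, adjusted p = 0.611, 5 of 9 positive), *Klrb1c* for T and NK cells (0.71, adjusted p = 0.706, 3 of 7 positive, median -0.07) and *Cela1* for acinar cells (0.38, adjusted p = 0.773).

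The members were set beside iMEFs, in which control and senescent cells both carried the floxed alleles and differed in 4-hydroxytamoxifen, which activates Cre and was added 7 days before collection. These cells were immortalized with SV40 large T, and their 3 libraries per group were fitted apart from the livers. In iMEFs 39.8% of the 13561 tested genes were called. Of the 28 liver members, 22 were tested there, 11 were called higher, 4 lower and 7 not called, and 6 could not be tested, among them *Atp8b5*, *Ces1b* and *Gm45910*. The log2 fold change differed between the tissues for 12 of the 22, *Terf2* among them (edgeR interaction test, adjusted p of 0.05). Over all 11693 genes tested in both, the share was 17.1%. The members were chosen by liver values that also enter this test. A larger share among them follows from that choice and is no result about them.

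Several members outside the p53 list rose in both tissues. *Gm37795* rose by 2.89 in livers and 2.76 in iMEFs, *Snhg15* by 1.52 and 1.63, *Exoc4* by 1.05 and 0.68 and *Mybl1* by 2.003 and 1.40, and for these genes the difference between tissues did not pass. *Gm9949* (2.47 and 1.32), *Sytl1* (1.10 and 2.01) and *Commd3* (0.57 and 0.39) were also called in both without a called difference, as was *1700007K13Rik*, at 31 and 246 reads in control and senescent iMEFs. *Gria3* and *Ddias* rose in both and more in livers, with iMEF changes of 1.53 and 1.33, and *Ces2e* rose in iMEFs from 2 to 163 reads. *Nrg1* was at 32.1 and 33.2 CPM in control and senescent iMEFs, a change of 0.05 (adjusted p = 0.748). *Mgmt* was at 0.39 in iMEFs (adjusted p = 0.135), *Tmem43* at 0.07 (adjusted p = 0.702), *H2afj* at 0.19 (adjusted p = 0.168) and *Endog* at -0.54 (adjusted p = 0.0598).

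The lower genes of chromosome 8 differed in this comparison. *Cdh1* was lower in both tissues, with changes of -1.18 in livers and -1.56 in iMEFs (edgeR adjusted p = 0.00273), on 76 and 20 iMEF reads. *Aprt* was at 0.17 in iMEFs (adjusted p = 0.126) and *Def8* at -0.19 (adjusted p = 0.0962), and for both the change differed from that in livers. *Serpinb1a*, on chromosome 13, was lower in both and more so in iMEFs (-3.50), as was *Terf2* (-6.75), which left 13 reads in senescent iMEFs.

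**Figure D3:**
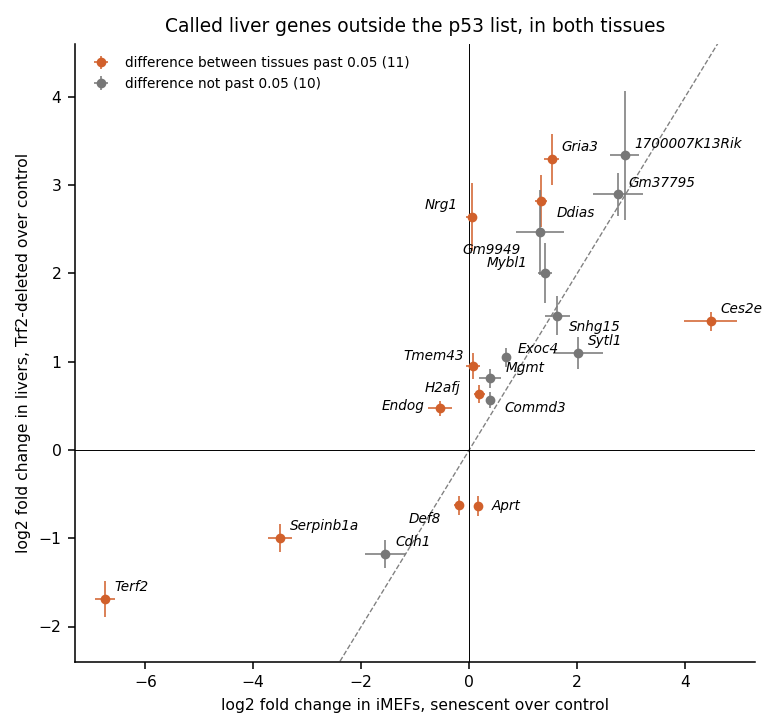
Log2 fold change in livers (Trf2-deleted over control) against that in iMEFs (senescent over control) for 21 of the 22 members tested in both tissues, with standard errors and the line of equal change dashed. Orange points are 11 genes whose change differed between the tissues, with *Nrg1* above the line and *Ces2e* under it, and grey points are the other 10.

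Livers of a group differed from each other about as much in both groups. The standard deviation of log2 CPM among 4 livers had a median over genes of 0.20 in controls and 0.22 in Trf2-deleted livers, and the median ratio was 1.10, with 55.9% of genes more variable in Trf2-deleted livers. The ratio was 0.992 without Trf2-deleted liver 4 and 1.25 without control liver 4, so that a single liver decided its direction. Correlations of log2 CPM between livers of a group and between groups were alike, with means per library of 0.973 to 0.979 within and 0.972 to 0.976 between.

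The lists differed in which group was more variable. Their medians rest on the same 4 livers per group and were not recomputed without single livers. Genes of a list can vary together, so that 1 liver can move many of them. Circadian clock genes, which cycle with the time of day, had a median standard deviation of 0.27 in controls and 0.46 in Trf2-deleted livers, and 20 of 27 genes were more variable in the latter. *Dbp*, a clock output gene, was at 1.78, 1.52, 7.06 and 17.2 CPM in controls and 0.752, 1.92, 1.78 and 25.9 CPM in Trf2-deleted livers, and *Per3* was at 4.68, 4.22, 6.33 and 14.9 CPM and at 2.66, 4.03, 6.37 and 19.95 CPM. *Nr1d1*, a repressor of the clock, was at 34.2, 22.8, 109 and 125 CPM and at 26.9, 13.8, 50.1 and 84.4 CPM. Unlike *Dbp* and *Per3*, it was more variable in controls, with a standard deviation of log2 CPM of 1.22 against 1.12. Livers numbered 4 in each group were the highest for all 3 genes, which were chosen for their spread. No source used here gives the hour of collection.

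Cholesterol synthesis and Kupffer cell genes went the other way and were more variable in controls. The cholesterol list had medians of 0.37 in controls and 0.18 in Trf2-deleted livers, with 6 of 32 genes more variable in the latter. *Idi1*, an enzyme of isoprenoid synthesis, was at 71.0, 161, 295 and 188 CPM in controls and at 127, 121, 142 and 93.5 CPM in Trf2-deleted livers, and *Mvd*, mevalonate decarboxylase, at 35.2, 50.3, 117 and 96.5 CPM and at 43.8, 67.0, 40.004 and 64.3 CPM. The Kupffer cell list had medians of 0.48 and 0.17, with 0 of 10 genes more variable in Trf2-deleted livers. *Marco*, a scavenger receptor, was at 10.0, 4.40, 4.08 and 26.8 CPM in controls and at 12.8, 12.8, 13.8 and 18.2 CPM in Trf2-deleted livers, and *Csf1r*, the receptor of macrophage colony-stimulating factor, at 71.0, 34.7, 52.2 and 95.6 CPM and at 80.5, 79.8, 69.0 and 75.4 CPM. Control liver 4 was the highest and control liver 2 among the lowest in both. Gene examples were again chosen for their spread, and the p53 list had medians of 0.21 and 0.23.

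**Figure D4:**
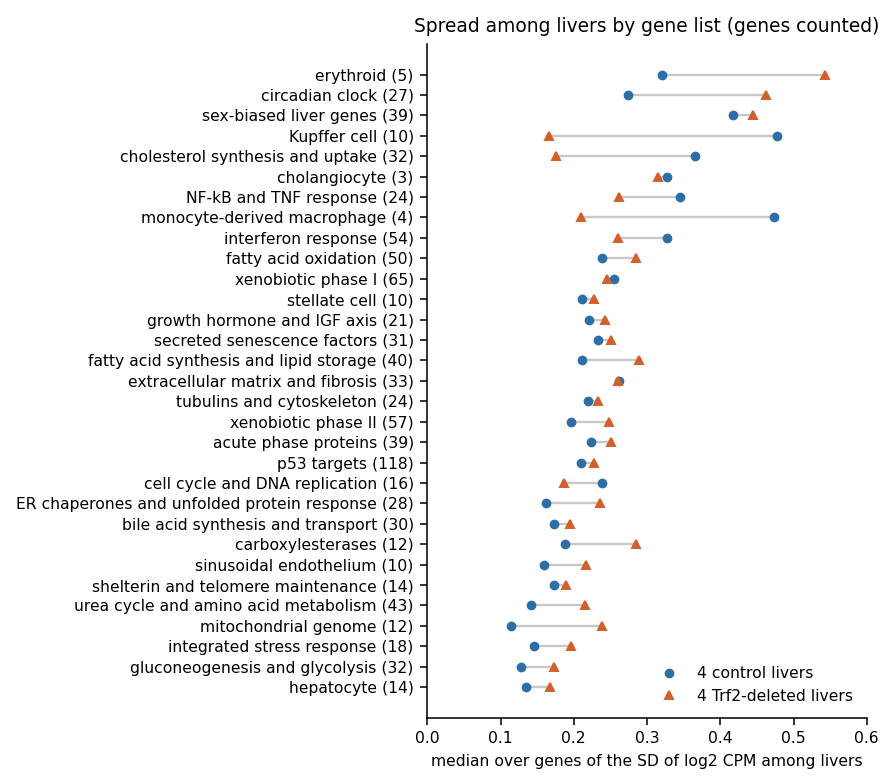
Median over genes of the standard deviation of log2 CPM among the 4 livers of each group, for gene lists with a mean of at least 5 CPM, with the number of genes in brackets. The circadian clock is further right in Trf2-deleted livers (0.46 against 0.27), and Kupffer cell and cholesterol genes in controls (0.48 against 0.17 and 0.37 against 0.18).

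The 10 most variable genes with a mean of at least 5 CPM were *Gm42047*, *Dbp*, *Entpd4b*, *Gapdh* and 6 major urinary protein genes, *Mup10*, *Mup11*, *Mup15*, *Mup16*, *Mup17* and *Mup19*. *Gm42047*, a long noncoding RNA of chromosome 8 (121833247 to 121841178, plus strand), lies 14.7 Mb from *Terf2*, on the side of *Aprt*. Its level was 146, 164, 86.5 and 131 CPM in controls and 685, 205, 320 and 0 CPM in Trf2-deleted livers, so that 3 of the latter were above all controls and the fourth had no read (edgeR adjusted p = 0.828). *Mup10* was at 247 CPM in Trf2-deleted liver 4 and at most 2.81 CPM in every other liver. *Mup17* was at 236, 187, 73.2 and 250.3 CPM in controls and 0.867, 82.9, 1.02 and 106 CPM in Trf2-deleted livers. The major urinary proteins are near-identical copies on chromosome 4, as *Gapdh* has many pseudogenes, and for these genes the split of reads among copies is uncertain. *Gapdh* itself, often used as a reference gene, was at 92.7 CPM in control liver 4 and 47.1 CPM in Trf2-deleted liver 2, and at 4.80 to 11.6 CPM in the other 6 livers.

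**Figure D5:**
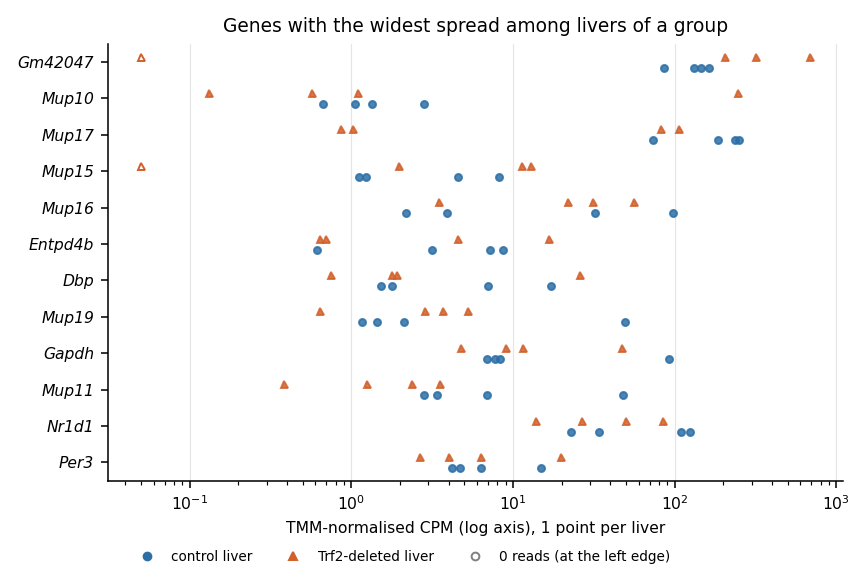
Levels in each liver, in TMM-normalised CPM on a log axis, of the 10 genes with the widest spread within groups and of the clock genes *Nr1d1* and *Per3*. The open triangle for *Gm42047* is Trf2-deleted liver 4 with 0 reads, beside 205 to 685 CPM in the other 3, and the Mup genes range from low to high levels among livers of both groups.

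Calls differed in how much they rested on single livers. Of the 28 members, 16 passed in all 8 fits that left out 1 liver, as did 14 of the 21 p53 targets, and 7 members and 5 p53 targets passed in fewer than 4. Those that passed in all 8 included *Atp8b5*, *Ces2e*, *Gm37795*, *Gria3*, *Ddias*, *Exoc4*, *1700061I17Rik*, *Terf2*, *Gm45910*, *Ces1b*, *Nrg1*, *Mgmt*, *Cdh1*, *1700007K13Rik* and *Snhg15*.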

How the data were processed

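RNA of 4 control and 4 Trf2-deleted livers was sequenced as paired ends, and the authors deposited raw counts of reads per gene, aligned to mm10 with STAR and counted with featureCounts as the submitters' processing notes name these tools without versions. Whether counting used strand, and with which annotation, is not given in the sources used here. Normalized tables were deposited as well and were not used. Of 54532 gene IDs, 54495 were found in GENCODE M21 (GRCm38), and genes were handled by ID because 27 symbols had become dates.

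Counts were filtered with filterByExpr, scaled by TMM factors and tested with the quasi-likelihood test of edgeR 4.0.16 (R 4.3.3) on 6 residual degrees of freedom, with Benjamini-Hochberg adjustment over all 14270 tested genes and a threshold of 0.05. Log2 fold changes use a prior count of 2. Total reads ranged from 15364450 to 18015991 per library, and intervals of read ratios cover counting error only. The difference from iMEFs was tested as an interaction over all 14 libraries. The study used DESeq2, which was run as an alternative (1.42.0), with limma-voom (3.58.1), median-ratio factors, no filter, a replicate block, a threshold of 0.01 and fits without each liver. The fits were tested on simulated data.

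All called genes outside the p53 list were named except 1 that is not reported here, with values per liver for the first 15 by p in each direction. Of the p53 list, the 3 with the smallest p had such values. The 10 genes on either side of *Terf2*, the called or smallest-p member of each list and the 10 most variable genes were also named, and the examples of spread were the most variable genes of 3 lists, chosen after their values were seen. The comparison, the gene lists and the p53 list of 184 entries, written from general knowledge, were chosen with earlier results of these data known.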

Additional observations from a re-analysis of the deposited data

Results flagged for a closer look

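In groups of 4 livers, 1 value far from the other 3 was found in 2 of the 27 called genes outside the p53 list that are named. Genes named for other reasons, such as *Mup10* and *Gapdh*, are not counted here. For normally distributed values, chance alone gives such a value in about 1 of 20 groups. *Gm45910* was at 0.176 CPM in control liver 2 and at 0 in the other control livers. That value stands for 3 reads, and the rate does not hold for such counts. *Aprt* was at 28.3 CPM in Trf2-deleted liver 2, above the other 3 Trf2-deleted livers.

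For 11 of the named called genes outside the p53 list, the log2 fold change in livers differed from that in iMEFs. The interaction test of edgeR was used (adjusted p of 0.05). The difference, livers minus iMEFs, was positive for *Terf2* (4.88), *Nrg1* (2.69), *Serpinb1a* (2.42), *Gria3* (1.79), *Ddias* (1.53), *Endog* (0.9998), *Tmem43* (0.88) and *H2afj* (0.45). It was negative for *Ces2e* (-2.63), *Aprt* (-0.80) and *Def8* (-0.44). For *Terf2* and *Serpinb1a* a positive value means a smaller fall in livers. Called p53 targets are not counted here, and some of them differed as well, such as *Phlda3* (3.09) and *Mdm2* (-0.83).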

How the results depend on the processing

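DESeq2 called 99 higher and 34 lower genes, 70 and 34 outside the p53 list and 20 on chromosome 8 besides *Terf2*, and without the filter on low counts these numbers were 97, 33, 69, 33 and 18. At a threshold of 0.01 they were 28, 2, 14, 2 and 5. Leaving out 1 liver gave 32 to 49 higher and 2 to 10 lower genes. Outside the p53 list these numbers were 17 to 30 and 2 to 10, and 5 to 10 genes besides *Terf2* lay on chromosome 8. Among called genes outside the p53 list, 10 to 11 differed between tissues. The ratio of spread ran from 0.992 (without Trf2-deleted liver 4, reversed in direction) to 1.25 (without control liver 4). The change of *Terf2* ran from -1.83 to -1.57 and passed each time. The cause of these differences was not tested. Of 351 values of the 27 called genes outside the p53 list other than *Terf2*, under 13 settings, 0 changed direction and 69 no longer passed. Correlations of deviations between livers of the same replicate number were -0.00, -0.08, -0.03 and 0.24. The last, for the livers numbered 4, was the largest of all pairs of a control and a Trf2-deleted liver. Whether these livers shared a condition was not tested. A fit with the replicate block called 42 genes, 36 of the 49 and 19 of the 28 members among them.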
